A study of Mus musculus with 24 samples.

Results

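The GABA-A receptor subunit genes described here are Gabra2, Gabrg1, Gabra4 and Gabrb1, which lie together on chromosome 5, and Gabra3, Gabra5, Gabrb2 and Gabrg3, which lie at other loci. They are 8 of the 19 GABA-A subunit genes and of the 39017 genes in the count tables, and all 8 were found by symbol and Ensembl identifier. The members were chosen by measured values, their levels in the comparison of Prdm16 knockout and control cells. Those values are therefore given as a description, with fold changes, standard errors and counts but no p-value.

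GABA-A receptors are chloride channels opened by the transmitter GABA and are assembled from several subunits, most often of the alpha, beta and gamma classes. Alpha and beta subunits form the GABA binding sites, the alpha and gamma subunits form the benzodiazepine site, and the mix of subunits sets the affinity, kinetics and placement of the receptor. In the embryonic cortex, where chloride inside cells is high, GABA depolarizes progenitors and young neurons and is known to act before synapses have formed.

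RNA-seq was done on cells sorted from mouse embryonic cerebral cortex at E15.5. There were 6 groups of 4 libraries, from 3 populations and 2 genotypes: PAX6+ cells, labelled as radial glia (the neural stem cells of the cortex), TBR2+ cells (intermediate progenitors by their label) and PAX6-TBR2- cells (neurons by theirs). All 24 libraries carry the genotype Prdm16 flox/flox; those called WT carry these alleles alone, and those called KO also carry Emx1Ires-Cre, a recombinase driven from the Emx1 locus in the dorsal telencephalic lineage. The Cre allele was present in KO libraries only, so an effect of the allele itself and an effect of losing Prdm16, a zinc finger transcription regulator, cannot be told apart. Replicates are called biological, but their embryos and litters are not named, and p-values cover no more than the spread among the libraries. Library names carry a different prefix in each population, and handling and population cannot be told apart.

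Libraries held 4.95 to 12.6 M counts, except for replicate 4 of WT PAX6-TBR2-, which held 30 M. Levels are given as CPM, counts relative to the library total with TMM scaling over all 24 libraries, and errors as SD with n = 4 unless an SE is named. Levels of different genes are compared only as CPM per kb of exon length. The targeted gene, Prdm16, was at 256 ± 34.7 CPM in WT PAX6+ and 188 ± 27.8 CPM in KO PAX6+, and the ranges overlapped (log2 fold change -0.43, SE 0.12, edgeR adjusted p = 0.058, and 0.000495 with the replicate number as a block). It was at 55.8 ± 16.0 and 52.1 ± 7.93 CPM in WT and KO TBR2+ (-0.09, SE 0.17, edgeR adjusted p = 0.9). In WT and KO PAX6-TBR2- it was at 25.2 ± 8.78 and 18.7 ± 7.61 CPM (-0.44, SE 0.27, edgeR adjusted p = 0.814). Counts over the whole gene do not show whether the floxed exons were removed. The 9 radial glia markers summed to 2890 to 3859 CPM in PAX6+ libraries; TBR2+ libraries held 448 to 707 CPM of them and PAX6-TBR2- libraries 203 to 328 CPM. The 7 intermediate progenitor markers summed to 2112 to 2718 CPM in TBR2+ and to at most 452 elsewhere, and the 9 cortical neuron markers to 8266 to 9469 CPM in PAX6-TBR2-, 6298 to 8435 in TBR2+ and 382 to 453 in PAX6+. In such bulk samples, fewer cells of a type and less RNA per cell cannot be told apart.

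Positions are those of the mouse build GRCm38, the assembly of mm10. On chromosome 5, in order along the chromosome, Gabrg1 (ENSMUSG00000001260) spans 70751047 to 70842617 on the minus strand and Gabra2 (ENSMUSG00000000560) 70957597 to 71095849 on the minus strand. Gabra4 (ENSMUSG00000029211) follows at 71569749 to 71658308 on the minus strand and Gabrb1 (ENSMUSG00000029212) at 71658113 to 72149037 on the plus strand. The cluster is 1398 kb long. Gabrg1 and Gabra2 are 115 kb apart, Gabra2 and Gabra4 474 kb apart, and Gabra4 and Gabrb1 diverge from a shared 5′ region, where their spans overlap by 196 bases. Gabrg3 (ENSMUSG00000055026; 56716465 to 57387188) and Gabra5 (ENSMUSG00000055078; 57407672 to 57510059) lie on the minus strand of chromosome 7. Gabrb2 (ENSMUSG00000007653) lies on chromosome 11 at 42419757 to 42629028 (plus strand), and Gabra3 (ENSMUSG00000031343) on chromosome X at 72432681 to 72656848 (minus strand). The strand setting of the counting is not given in the sources used here, so reads from overlapping genes on opposite strands may be mixed for Gabra4, Gabrb1 and Gabra5.

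The 250 bases before the annotated starts of Gabra2 and Gabrg1 are shown because these neighbours had the widest separation between genotypes. They are RefSeq sequence (GRCm38.p6; all 8 members had an entry), printed 5′ to 3′ along the gene, with CG dinucleotides in capitals. The Gabra2 window is chr5:71095850-71096099 and the Gabrg1 window chr5:70842618-70842867, both on the minus strand, and neither overlaps an annotated exon.
Gabra2: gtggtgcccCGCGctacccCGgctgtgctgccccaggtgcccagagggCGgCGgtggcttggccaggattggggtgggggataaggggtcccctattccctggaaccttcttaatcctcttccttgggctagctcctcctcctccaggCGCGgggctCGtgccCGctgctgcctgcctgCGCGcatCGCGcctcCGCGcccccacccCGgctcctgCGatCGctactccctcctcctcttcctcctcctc
Gabrg1: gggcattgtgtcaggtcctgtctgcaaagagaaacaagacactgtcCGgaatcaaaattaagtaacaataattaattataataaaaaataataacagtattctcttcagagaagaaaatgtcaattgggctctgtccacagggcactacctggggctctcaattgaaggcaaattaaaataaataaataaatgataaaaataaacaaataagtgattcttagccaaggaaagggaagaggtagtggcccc
The 2 windows differ in composition. That of Gabra2 is 70% G or C and holds 18 CG, and that of Gabrg1 is 35.6% G or C and holds 1. Among 32807 promoter windows of this length the median was 6 CG, 92.1% held at least 1 and 21.7% held 18 or more. CANNTG, the letters of an E-box (a palindrome, so each match counts once), occurs once in the Gabra2 window and at 2 places in the Gabrg1 window, and in 66.2% of all windows. GATAAG, searched on both strands, occurs once in the Gabra2 window and not in that of Gabrg1 (6.55% of all windows hold it), and CCAAT, on both strands, occurs once in each (33.8%). These are letter matches only, and no binding was measured.

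In PAX6+ cells 3 of the 4 genes of the chromosome 5 cluster, Gabra2, Gabrg1 and Gabrb1, were higher in the KO, with library ranges apart. The ranges of the fourth, Gabra4, overlapped, as did those of the members at other loci. Gabra2 encodes the alpha2 subunit, a main alpha subunit of the embryonic forebrain. It was at 2.20, 7.19, 2.70 and 4.14 CPM in WT replicates 1 to 4 and at 67.8, 79.9, 72.2 and 84.7 CPM in KO replicates 1 to 4. The lowest KO library was far above the highest WT library, and the fold change was 18.8 (log2 4.23, SE 0.25). Gabrg1 encodes the gamma1 subunit of the receptor. It was at 0.967, 1.31, 0.257 and 1.45 CPM in WT and at 10.9, 11.1, 15.2 and 23.3 CPM in KO, a fold change of 15.8 (log2 3.98, SE 0.37). The WT value rests on 48 reads over the 4 libraries, against 694 in the KO. WT replicate 3 had 4 reads, and Gabrg1 met the read filter only with KO libraries counted. A lower level in KO could therefore hardly have been called. All KO libraries were again above all WT libraries.

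Gabrb1, the beta1 subunit gene, was at 13.1, 12.2, 12.9 and 15.3 CPM in WT PAX6+ and at 36.1, 25.9, 37.4 and 32.5 CPM in KO PAX6+. The ranges were apart and the fold change was 2.5 (log2 1.32, SE 0.15). Gabra4 encodes the alpha4 subunit, known from receptors outside synapses that also hold the delta subunit. It was at 15.8, 22.5, 17.9 and 27.7 CPM in WT and at 18.6, 28.7, 34.3 and 50.8 CPM in KO. Its ranges overlapped, since KO replicate 1 lay within the WT range, and the log2 fold change was 0.69 (SE 0.24). Without KO PAX6+ replicate 1 it was 0.88, and with the replicate number as a block 0.63; Gabra4 passed the threshold in both of these fits.

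The members at other loci had low counts in PAX6+ cells. Gabra3, the alpha3 subunit gene, was at 1.32, 2.28, 1.35 and 1.76 CPM in WT and at 2.19, 0.696, 2.03 and 3.83 CPM in KO, with a log2 fold change of 0.39 (SE 0.43). Gabrb2, which encodes beta2, a beta subunit of mature brain receptors, was at 2.02, 1.59, 0.963 and 0.622 CPM in WT and at 0.938, 0.927, 0.793 and 1.11 CPM in KO (-0.45, SE 0.42). Gabrg3, the gamma3 subunit gene, was at 0.791, 0.484, 1.41 and 1.14 CPM in WT and at 0.938, 1.16, 0.264 and 1.02 CPM in KO (-0.15, SE 0.48). The genotypes overlapped for all 3. Gabra5 encodes alpha5, an alpha subunit of receptors outside synapses in hippocampus and cortex. It had 1 read in WT PAX6+ (replicate 1) and 3 in KO PAX6+ (replicate 4); in the WT libraries with 0 reads a count of 0 allows up to 0.193 to 0.311 CPM, a limit that covers counting error only.

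Of the 8 members, 7 were tested in PAX6+ and 3 were called higher (an edgeR adjusted p under 0.05 over all genes tested), Gabra2, Gabrg1 and Gabrb1, all of the chromosome 5 cluster. Over all 14212 genes tested, 3.64% were called (517; 1045 with the replicate number as a block) and 2.45% were called higher. The ranges were apart, with KO higher, for 3 members, against 4.67% of all genes. The median log2 fold change was 2.65 over the 4 cluster genes and -0.15 over the 3 tested members elsewhere, against 0.0020 over all genes. Because the comparison was used to choose the members, nothing is read from these shares.

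**Figure D1:**
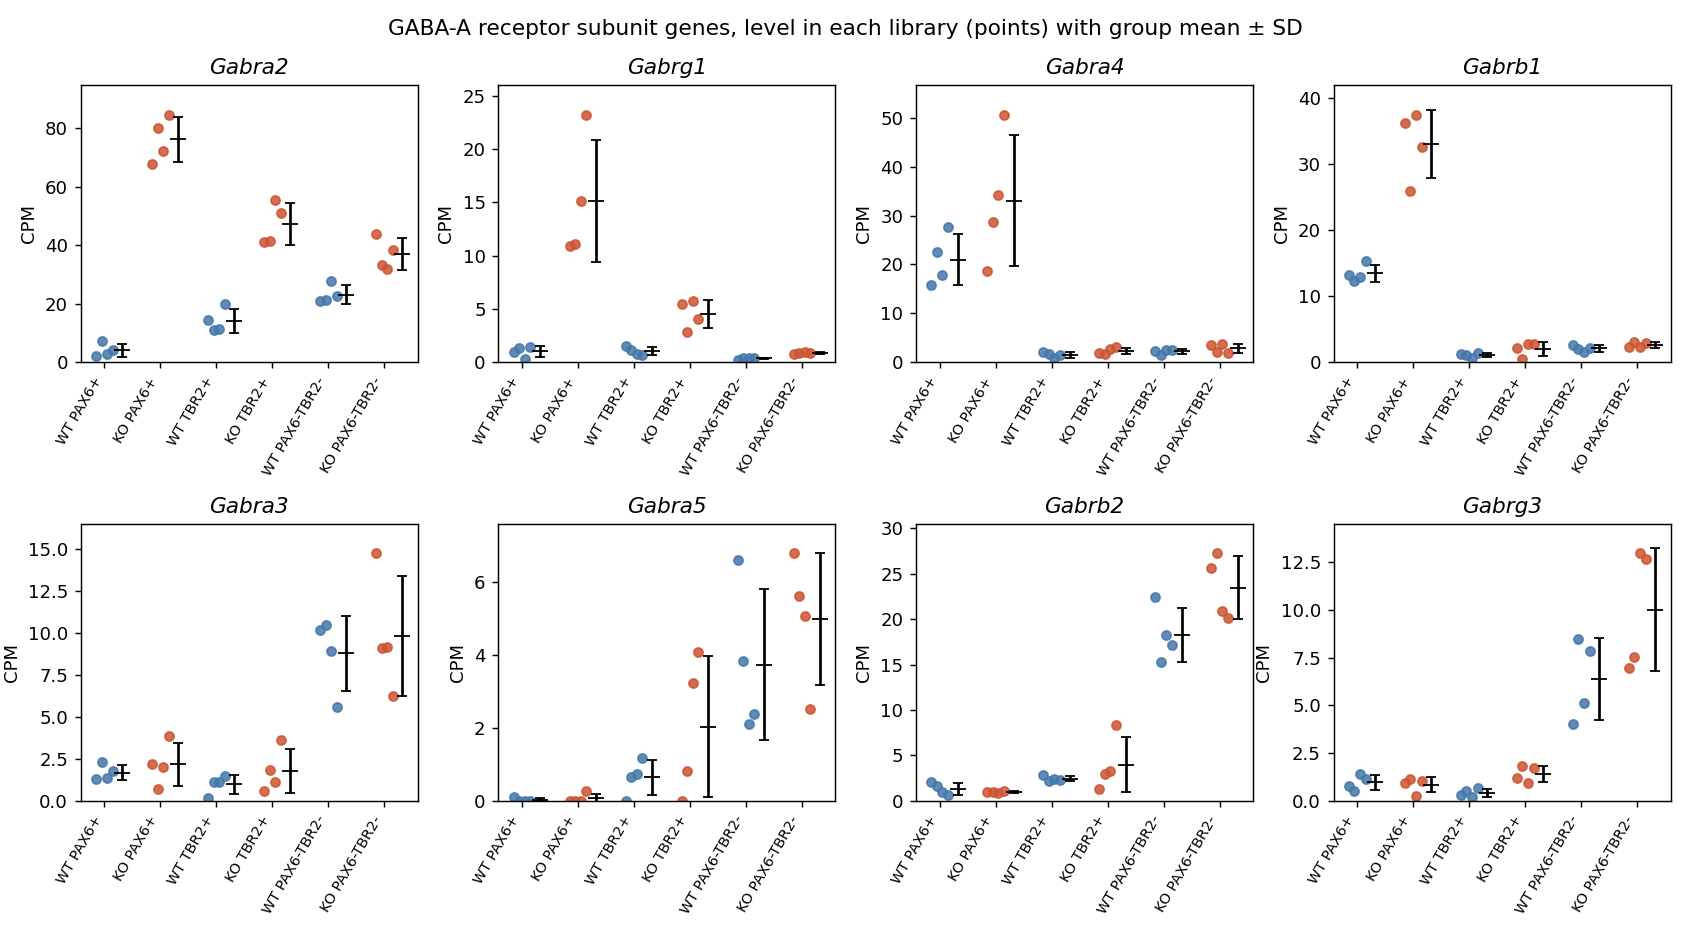
Level of each of the 8 subunit genes, in CPM scaled over all 24 libraries, in the 6 groups. Points are libraries (blue WT, orange KO) and bars the group mean ± SD (n = 4), each panel with its own vertical axis from 0; Gabra2 and Gabrg1 stand highest in KO PAX6+ (67.8 to 84.7 and 10.9 to 23.3 CPM), Gabra4 and Gabrb1 in PAX6+ of both genotypes, and the 4 genes of the lower row in PAX6-TBR2-.

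In TBR2+ cells, Gabra2 and Gabrg1 were again higher in the KO. Gabra2 was at 14.2, 11, 11.4 and 19.8 CPM in WT replicates 1 to 4 and at 40.9, 41.6, 55.4 and 51.0 CPM in KO, a fold change of 3.35 (log2 1.75, SE 0.17). Gabrg1 was at 1.51, 1.14, 0.736 and 0.665 CPM in WT and at 5.47, 2.79, 5.69 and 4.08 CPM in KO, with a log2 fold change of 2.11 (SE 0.37). For both genes every KO library was above every WT library, and the Gabrg1 value rests on 25 reads in WT and 110 in KO. Gabrg1 passed the read filter in TBR2+ only through the KO, so only a higher level in KO could be called. Gabra4 was at 0.736 to 2.11 CPM in WT and 1.64 to 2.98 CPM in KO (0.63, SE 0.37), and Gabrb1, with too few reads for the test, at 0.552 to 1.33 and 0.493 to 2.67 CPM. Both overlapped.

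At other loci, KO TBR2+ replicate 4 held the highest TBR2+ value of 3 members. Gabrb2 was at 2.87, 2.12, 2.39 and 2.33 CPM in WT and at 1.33, 2.96, 3.23 and 8.31 CPM in KO, with a log2 fold change of 0.70 (SE 0.44; 0.03 without KO TBR2+ replicate 4). Gabra5 was at 0, 0.654, 0.736 and 1.16 CPM in WT and at 0, 0.821, 3.23 and 4.08 CPM in KO. Gabra3 was at 0.151, 1.14, 1.10 and 1.5 CPM in WT and at 0.591, 1.81, 1.14 and 3.61 CPM in KO. The cortical neuron markers summed to 8435 CPM in KO TBR2+ replicate 4, the highest of the 8 TBR2+ libraries. They summed to 8340 CPM in WT TBR2+ replicate 4 and 8166 CPM in KO TBR2+ replicate 2, where Gabrb2 was at 2.33 and 2.96 CPM. The part of neurons in these values was not tested. Gabrg3 was at 0.302, 0.490, 0.184 and 0.665 CPM in WT and at 1.18, 1.81, 0.949 and 1.73 CPM in KO, and these ranges were apart on 10 and 35 reads. In TBR2+, 4 members were tested and 2 called, Gabra2 and Gabrg1, against 1.76% of all 12687 genes, 1.1% of them higher. The ranges were apart, with KO higher, for 3.48% of all genes tested. As in PAX6+, nothing is read from these shares.

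In PAX6-TBR2- cells Gabra2 was at 20.8, 21.3, 27.7 and 22.5 CPM in WT replicates 1 to 4 and at 43.8, 33.2, 31.8 and 38.4 CPM in KO. The ranges were apart and the fold change was 1.61 (log2 0.69, SE 0.14). Gabrg1 was at 0.200, 0.332, 0.394 and 0.367 CPM in WT and at 0.753, 0.801, 0.948 and 0.876 CPM in KO, also apart, but on 16 and 23 reads over the 4 libraries. The other 6 members overlapped between genotypes. Gabrg3 was at 4.00, 8.47, 5.12 and 7.86 CPM in WT and at 6.93, 7.53, 13 and 12.6 CPM in KO (0.64, SE 0.26). Gabrb2 was at 22.4, 15.3, 18.2 and 17.1 CPM in WT and at 25.6, 27.3, 20.9 and 20.1 CPM in KO (0.38, SE 0.16). The log2 fold changes were 0.53 (SE 0.39) for Gabra5, 0.22 (SE 0.28) for Gabra3, 0.32 (SE 0.31) for Gabra4 and 0.37 (SE 0.29) for Gabrb1.

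Of the 7 members tested in PAX6-TBR2-, 0 were called by edgeR, against 0.00774% of all genes (1 of 12928; 854 genes had an unadjusted p under 0.05). DESeq2 called 1 member, Gabra2, with a log2 fold change of 0.69. The ranges were apart, with KO higher, for 1.55% of all genes tested. All 7 fold changes were above 0, with a median of 0.38, against a median of 0.0007 over all genes. Of the 40 tested GABA pathway genes outside the members, 29 were above 0, with a median of 0.08. Because the genotype comparison was used to choose the members, nothing is read from these values. Markers of interneurons, cells that enter the cortex from ventral sources and express GABA-A subunits themselves, summed to 359 to 1031 CPM in WT and 480 to 1163 CPM in KO PAX6-TBR2- libraries. All 10 interneuron markers had a log2 fold change above 0, with a median of 0.38, and 0 were called. The part of interneurons in the members' values was not tested.

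**Figure D2:**
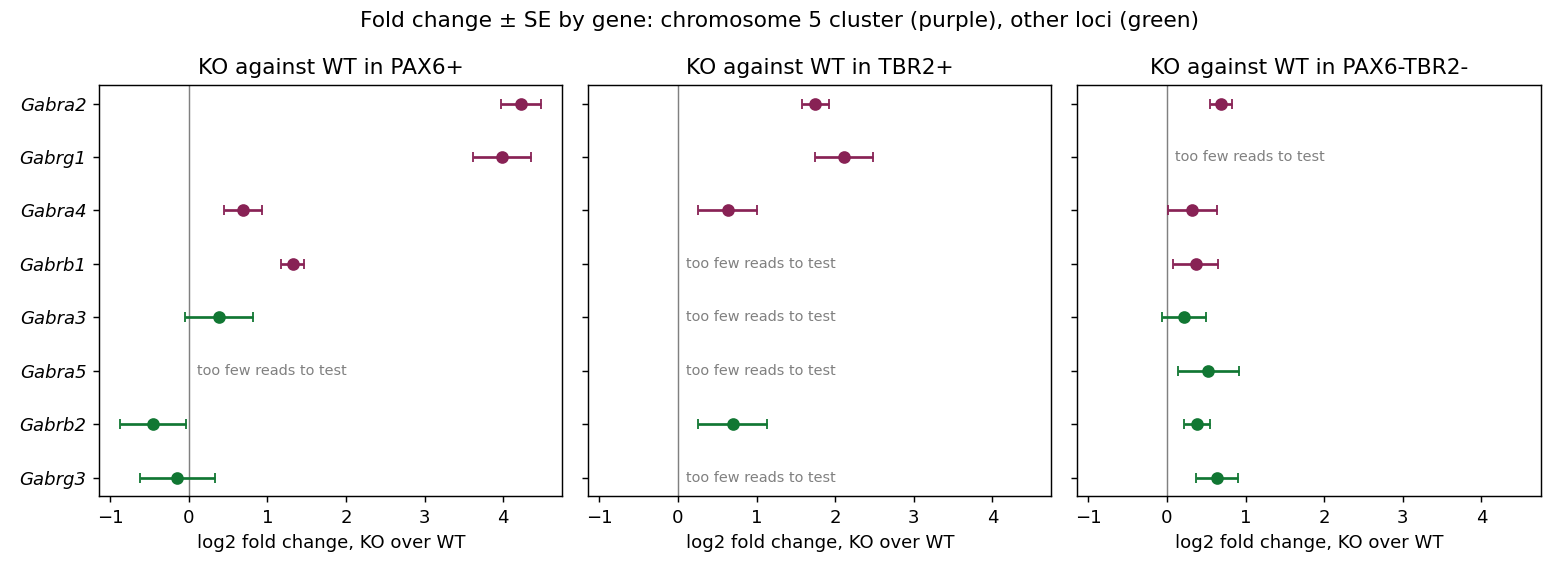
Log2 fold change of each member, KO over WT, with its SE, in PAX6+, TBR2+ and PAX6-TBR2- cells (4 libraries per genotype). Purple marks the chromosome 5 cluster and green the other loci; Gabra2 and Gabrg1 lie near 4 in PAX6+ (4.23 and 3.98) and near 2 in TBR2+ (1.75 and 2.11), and genes with too few reads are marked as not tested.

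The Gabra2 difference between genotypes was 4.23 in PAX6+, 1.75 in TBR2+ and 0.69 in PAX6-TBR2-, and whether these values differ was not tested. In level, the order of the groups for Gabra2 was KO PAX6+ (76.2 ± 7.56 CPM), KO TBR2+ (47.2 ± 7.14), KO PAX6-TBR2- (36.8 ± 5.49), WT PAX6-TBR2- (23.1 ± 3.16), WT TBR2+ (14.1 ± 4.06) and WT PAX6+ (4.06 ± 2.25). Of these neighbours only KO TBR2+ and KO PAX6-TBR2- overlapped. WT radial glia thus had the lowest Gabra2 level of the 6 groups and KO radial glia the highest. Cortical neuron markers summed to 382 to 453 CPM in WT PAX6+ and 392 to 403 CPM in KO PAX6+, the KO range lying within the WT range. Most of this sum was Map2, at 284 CPM on average in WT and 298 in KO. Of the 9 markers 6 had a log2 fold change below 0 and 3 above, and 1 was called lower, Dcx (57.9 and 28.4 CPM). The part of neurons in the Gabra2 values was not tested. For Gabrg1 the order was KO PAX6+ (15.1 ± 5.76 CPM), KO TBR2+ (4.51 ± 1.35), then WT TBR2+ (1.01 ± 0.392), WT PAX6+ (0.997 ± 0.534) and KO PAX6-TBR2- (0.845 ± 0.0856), which overlapped, and WT PAX6-TBR2- (0.323 ± 0.0859).

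Between the WT populations the members split in a different way from the genotype comparison: Gabra4 and Gabrb1 were radial glial, and the other tested members were highest in neurons. These tests share the WT libraries with the comparisons that chose the members, and the 3 population contrasts share libraries with each other. Gabra4 was at 21 ± 5.26 CPM in WT PAX6+ against 1.45 ± 0.577 CPM in WT TBR2+, 13.7-fold lower in TBR2+ (log2 fold change -3.78, SE 0.27, edgeR adjusted p = 1.7e-09). Gabrb1, which shares the divergent start with Gabra4, was at 13.4 ± 1.34 CPM in PAX6+ and 1.02 ± 0.342 CPM in TBR2+ (-3.65, SE 0.25, adjusted p = 1.21e-09). Both were also lower in PAX6-TBR2- than in PAX6+, Gabra4 at 2.17 ± 0.472 CPM (-3.17, SE 0.23, edgeR adjusted p = 8e-09) and Gabrb1 at 2.05 ± 0.479 CPM (-2.66, SE 0.21, edgeR adjusted p = 1.96e-08). All PAX6+ libraries were above all libraries of the other WT populations for both genes. In these contrasts 32.2% (TBR2+) and 33.7% (PAX6-TBR2-) of all genes were called lower than in PAX6+, and the share with ranges apart is not given here. With 25 reads in WT TBR2+, Gabrb1 passed the read filter against TBR2+ only through PAX6+, so only a lower level in TBR2+ could be called. Gabra4, with 36 reads in WT TBR2+, met the filter only with PAX6+ libraries counted. A higher level of Gabra4 in TBR2+ could therefore hardly have been called.

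Gabra2 went the other way in WT cells. It was 3.51-fold higher in TBR2+ than in PAX6+ (log2 1.81, SE 0.31, edgeR adjusted p = 5.9e-05), 1.67-fold higher in PAX6-TBR2- than in TBR2+ (0.74, SE 0.18, adjusted p = 0.00363) and 5.79-fold higher in PAX6-TBR2- than in PAX6+ (2.53, SE 0.28, adjusted p = 9.75e-07). The 3 ranges did not overlap, in contrasts where 31.0%, 25.6% and 32.9% of all genes were called higher. Gabrg1 had too few reads in WT cells for any of these tests, with 48 reads in PAX6+, 25 in TBR2+ and 16 in PAX6-TBR2-.

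The members at other loci were neuronal in WT cells. Gabrb2 rose from 2.43 ± 0.315 CPM in TBR2+ to 18.3 ± 3.02 CPM in PAX6-TBR2- (log2 fold change 2.92, SE 0.22, edgeR adjusted p = 3.47e-08), Gabrg3 from 0.410 ± 0.211 to 6.36 ± 2.14 CPM (3.95, SE 0.41, adjusted p = 1.35e-06), Gabra3 from 0.974 ± 0.576 to 8.80 ± 2.23 CPM (3.18, SE 0.40, adjusted p = 9.88e-06) and Gabra5 from 0.638 ± 0.481 to 3.73 ± 2.06 CPM (2.49, SE 0.58, adjusted p = 0.00224). Each neuron library was above each TBR2+ library for all 4 genes, as for 22.6% of all genes tested. WT TBR2+ held 23 reads of Gabra3, 15 of Gabra5 and 10 of Gabrg3, so these genes passed the read filter only through neurons. For them only a higher level in neurons could be called. Against PAX6+ the log2 fold changes in PAX6-TBR2- were 3.83 (SE 0.27) for Gabrb2, 2.79 (SE 0.34) for Gabrg3 and 2.39 (SE 0.29) for Gabra3, with edgeR adjusted p-values of at most 2.99e-06. WT PAX6+ held 67 reads of Gabrb2 and 49 of Gabrg3. Both genes, and Gabra5, met the filter in this contrast only with neuron libraries counted. For these genes a lower level in neurons could hardly have been called. Gabra5 had 137 reads in WT PAX6-TBR2- and 1 in WT PAX6+, a ratio per depth of 152 with a 95% exact counting interval of 26.9 to 6066.

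Of the 5 members tested between TBR2+ and PAX6+, 2 were called higher and 2 lower in TBR2+, against 63.2% of all genes called in either direction (31.0% higher and 32.2% lower). The fourth call was Gabrb2, at 1.30 ± 0.627 CPM in PAX6+ (log2 fold change 0.92, SE 0.37, edgeR adjusted p = 0.0404), and it was lost in 9 alternatives (adjusted p up to 0.111). Gabra3 did not pass (-0.77, 95% interval -1.67 to 0.12, edgeR adjusted p = 0.148). In this contrast Gabrb2 met the read filter only with TBR2+ libraries counted, and Gabra3 only with PAX6+ libraries counted. Between PAX6-TBR2- and TBR2+, 5 of 6 tested members were called, all higher, against 49.0% of all genes (25.6% higher and 23.4% lower). The exception was Gabra4 (0.61, interval -0.09 to 1.30, edgeR adjusted p = 0.173). Among the genes called, Gabra3, Gabra5 and Gabrg3 passed the read filter only through neurons, which fixed their direction. Of the untested members, Gabrg1 had ranges apart and lower in neurons (0.323 against 1.01 CPM), and Gabrb1 apart and higher (2.05 against 1.02 CPM). Between PAX6-TBR2- and PAX6+, 5 of 7 were called higher and 2 lower, against 66.6% of all genes (32.9% higher and 33.7% lower). With about 1 in 2 genes or more called in these contrasts and few members tested, nothing is read from the counts of members called. The directions and sizes are given as a description, within the limits of the read filter.

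Per exon length, the subunit mix of radial glia was led by different genes in the 2 genotypes. Each gene's CPM per kb was divided by the sum over all 19 subunit genes. In WT PAX6+ Gabra4 had the largest mean share (33.1%), followed by Gabre (24.5%), which encodes the epsilon subunit, while Gabrb1 held 9.32% and Gabra2 4.99%. In KO PAX6+ Gabra2 held 39.7%, followed by Gabra4 (21%), Gabre (10.5%), Gabrb1 (9.56%) and Gabrg1 (7.42%). Levels per kb were 9.97 ± 0.989 for Gabra2 and 5.44 ± 2.21 for Gabra4 in KO PAX6+, and these ranges did not overlap. In WT PAX6+ Gabra4 was at 3.45 ± 0.865 CPM per kb and Gabre at 2.57 ± 0.676, and these overlapped.

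Gabra2 held 16.0% of the summed level in WT TBR2+ and 32.3% in KO TBR2+, where its level was 6.18 ± 0.935 CPM per kb. In neurons Gabra2 held 7.78% in WT and 10.2% in KO, beside 7.29% and 7.84% for Gabrb2.

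**Figure D3:**
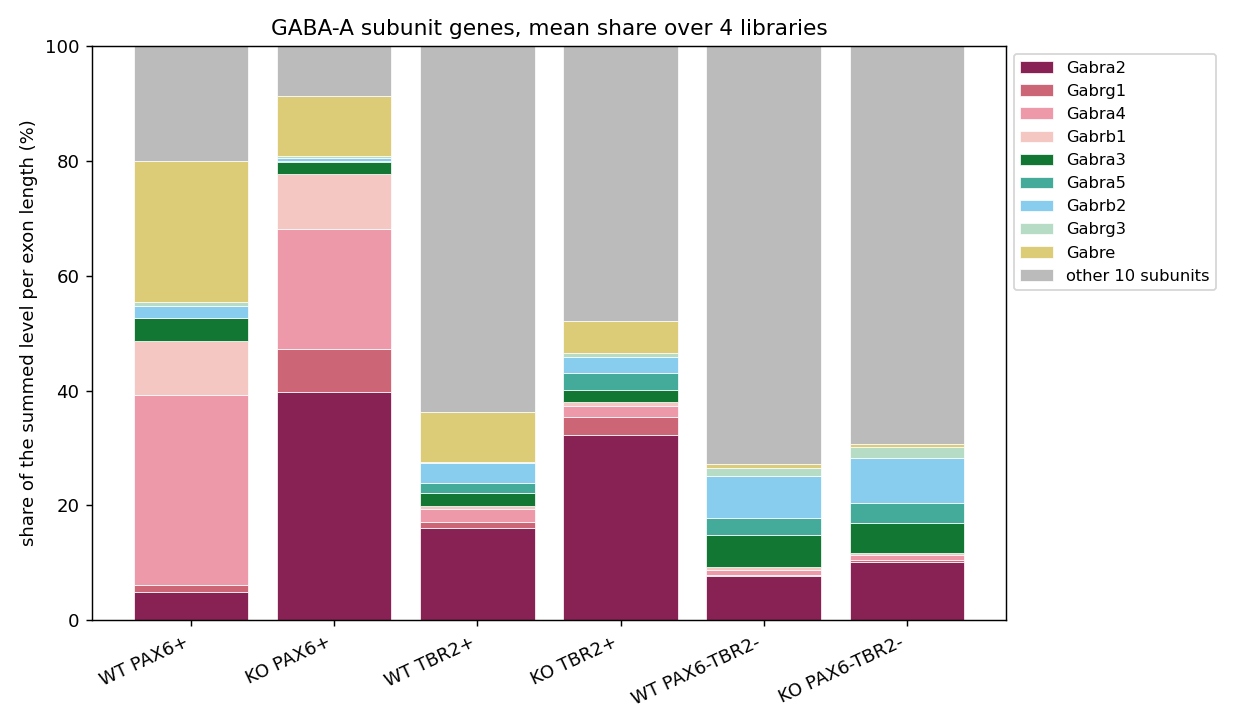
Mean share of each subunit gene in the summed level per exon length of all 19 GABA-A subunit genes (vertical axis, % of the sum, mean of 4 libraries per group). Reds are the chromosome 5 cluster, greens and light blue the other members, yellow Gabre and grey the remaining 10 genes summed; the cluster takes 48.6% in WT PAX6+ and 77.7% in KO PAX6+.

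The 4 cluster genes together held 48.6 ± 10.2% of the subunit sum in WT PAX6+ and 77.7 ± 4.17% in KO PAX6+, with ranges of 37.5 to 61.9% and 72.9 to 82.3%. Their share was 20 ± 2.97% and 38.0 ± 7.31% in WT and KO TBR2+, and 9.19 ± 2.12% and 11.8 ± 0.929% in WT and KO PAX6-TBR2-. Only the neuron ranges overlapped. The summed level of all 19 genes was 10.4 ± 0.806 CPM per kb in WT PAX6+ and 25.3 ± 3.63 in KO PAX6+, a ratio of 2.42, and the ratio was 1.75 in TBR2+ and 1.2 in PAX6-TBR2-. In mean, the KO PAX6+ sum lay between those of WT TBR2+ (11.4 ± 2.27) and WT PAX6-TBR2- (39.6 ± 4.97).

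The 11 subunit genes outside the members were not called between genotypes in any population; edgeR tested 3 in PAX6+, 3 in TBR2+ and 2 in PAX6-TBR2-. Gabre was at 12.2 ± 3.2 and 12.4 ± 1.53 CPM in WT and KO PAX6+ (log2 fold change 0.04, SE 0.19, edgeR adjusted p = 0.974). Per exon length, the gamma subunit members of WT PAX6+ cells were at 0.127 ± 0.0678 CPM per kb for Gabrg1 and 0.0802 ± 0.0339 for Gabrg3. In KO PAX6+ they were at 1.92 ± 0.732 and 0.0709 ± 0.0334 CPM per kb.

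Of 53 other genes of GABA signalling, 39 were tested in PAX6+, and 4 were called higher and 2 lower, against 2.45% and 1.19% of all genes; the median log2 fold change was 0.03. Among those higher in KO was Stk39, which encodes SPAK, a kinase that regulates cation-chloride cotransporters, from 69.0 ± 5.42 to 131 ± 14.2 CPM (log2 fold change 0.94, SE 0.11, edgeR adjusted p = 4.94e-05). Plcl1, whose product PRIP1 binds GABA-A beta subunits, rose by 0.75 (SE 0.16, edgeR adjusted p = 0.0128), and Slitrk3, an adhesion gene of inhibitory synapses, by 1.13 (SE 0.24, edgeR adjusted p = 0.0106). Lower in KO were Gad2, which encodes a GABA-synthesizing enzyme, from 4.04 ± 1.97 to 1.21 ± 0.4 CPM (-1.68, SE 0.38, edgeR adjusted p = 0.0186), and Aldh5a1, an enzyme of GABA breakdown, from 54.7 ± 9.08 to 38.7 ± 2.57 CPM (-0.48, SE 0.12, adjusted p = 0.0431). Gad2 is also 1 of the 10 interneuron markers, whose sum was 8.23 to 30.1 CPM in WT PAX6+, highest in replicate 1, and 7.41 to 10.5 CPM in KO PAX6+; 1 of the 10 was at 0 in all libraries of each group, and the part of interneuron RNA in the Gad2 value was not tested. Without WT PAX6+ replicate 1, Gad2 and Aldh5a1 did not pass, and Stk39, Plcl1 and Slitrk3 did; without WT PAX6+ replicate 3 Aldh5a1 did not. With the replicate block 9 genes were called.

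By role, 1 of 9 tested chloride transport genes was called higher in PAX6+, as were 2 of 18 genes of receptor assembly, trafficking and scaffold (4 with the replicate block). The chloride transporters themselves did not pass: Slc12a2 (NKCC1, which loads chloride) was at 73.7 ± 9.49 CPM in WT PAX6+ and 63.9 ± 9.25 in KO (-0.19, edgeR adjusted p = 0.658), and Slc12a5 (KCC2, which extrudes it) at 6.41 ± 1.04 and 7.92 ± 2.51 CPM (0.31, edgeR adjusted p = 0.692). Gphn, which encodes the scaffold protein gephyrin, was at 35.5 ± 2.31 and 31.7 ± 2.33 CPM (-0.14, edgeR adjusted p = 0.733). In TBR2+, 38 genes were tested and 1 was called, Trak2, which encodes an adaptor for mitochondrial and receptor transport, from 134 ± 14.6 to 226 ± 19.9 CPM (0.76, SE 0.10, edgeR adjusted p = 0.000933). In PAX6-TBR2-, edgeR called 0 of 40.

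The higher levels on chromosome 5 were checked against the genes around the cluster. Within 2 Mb on either side, the tables list 50 other genes, of which 16 were tested in PAX6+. Their median log2 fold change was 0.11, and 1 was called higher and 0 lower, against 2.45% and 1.19% of all genes. That gene was Fryl, from 170 ± 15.1 to 226 ± 18.8 CPM (0.43, SE 0.10, edgeR adjusted p = 0.0176). Gnpda2 and Guf1, the tested genes on the Gabrg1 side, had log2 fold changes of 0.10 (SE 0.16) and 0.09 (SE 0.13), and Commd8, on the Gabrb1 side, 0.08 (SE 0.19). The values farthest from 0, named after they were seen, were those of Gm15616 (1.62, SE 0.45, edgeR adjusted p = 0.0617), which lies within the span of Gabrb1 and may share its reads, and of Atp10d, beyond Gabrb1 (0.81, SE 0.23, edgeR adjusted p = 0.0756). With the replicate number as a block both passed (edgeR adjusted p = 0.0366 for Gm15616 and 0.0403 for Atp10d). That fit called 3 neighbours higher, and 1045 of all genes in either direction. Of the neighbours tested in TBR2+ (11) and PAX6-TBR2- (14), edgeR called 0. Around the other members, 0 of 10 genes on chromosome 7, 0 of 12 on chromosome 11 and 0 of 54 on chromosome X were called in PAX6+. In TBR2+, 1 of 15 on chromosome 11 was called higher, and 0 of 10 on chromosome 7 and 0 of 46 on chromosome X were called.

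**Figure D4:**
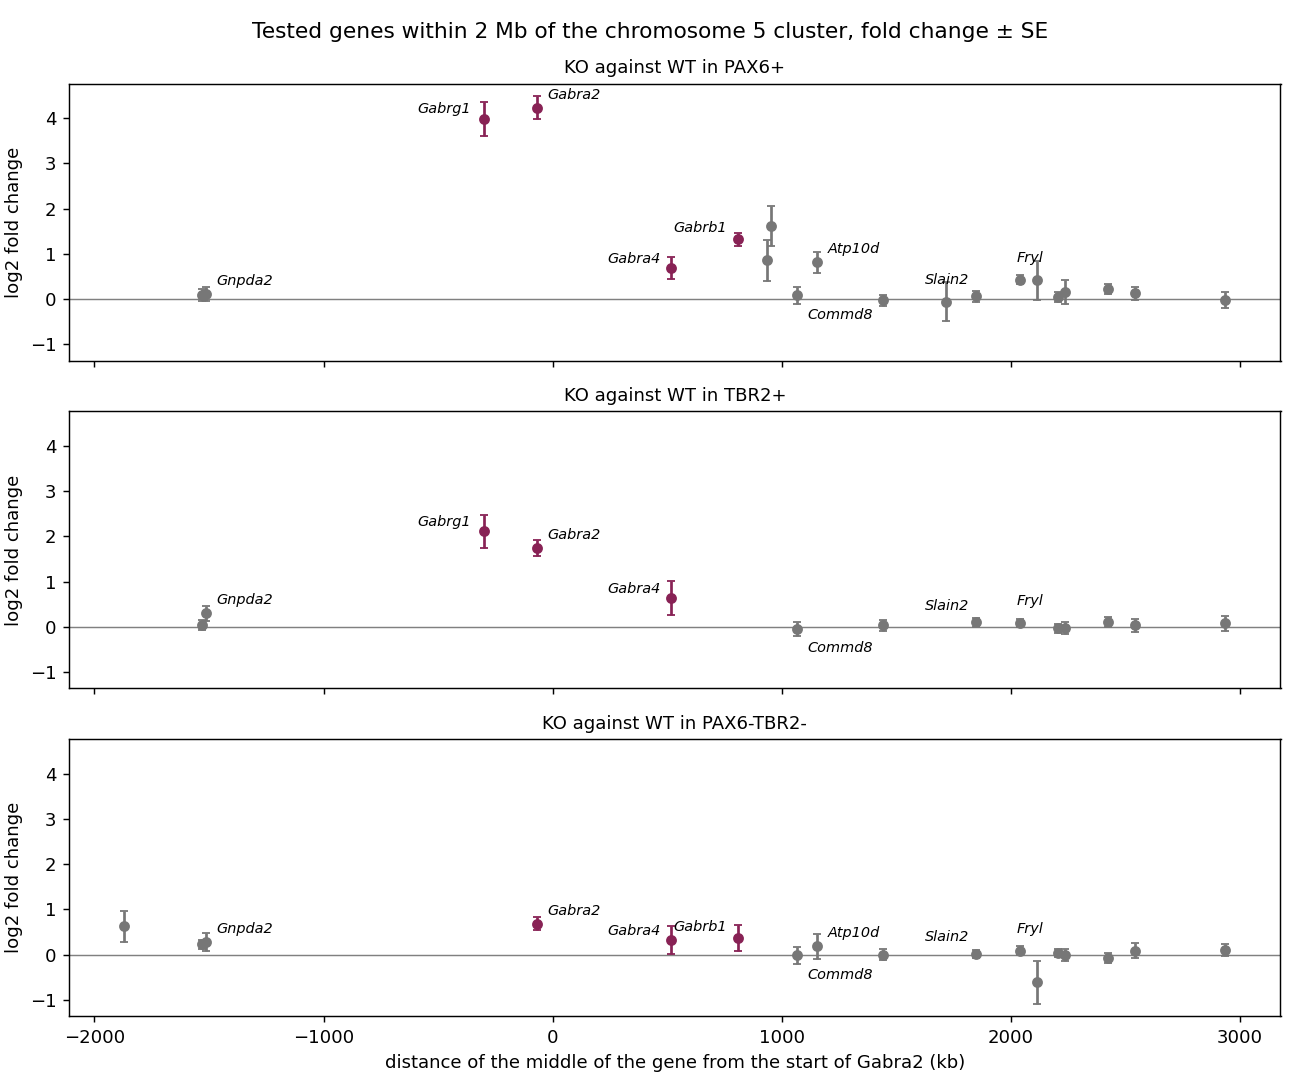
Log2 fold change, KO over WT, with its SE, for each tested gene within 2 Mb of the chromosome 5 cluster, against the distance of the gene's middle from the start of Gabra2 in kb. Members are purple and other genes grey, and some grey genes are unlabelled; in PAX6+ Gabrg1 and Gabra2 stand at 3.98 and 4.23 and Gnpda2 and Commd8 at 0.10 and 0.08.

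The genes whose pattern over the 24 libraries was most like that of Gabra2 were sought among 14636 genes by Pearson correlation of log2 CPM, given as a description since the libraries share groups and scaling. They were Pid1 (r = 0.899), Prokr2 (0.870), Tmem35a (0.793), B930095G15Rik (0.785) and Pdzrn3 (0.784). Pid1 was at 4.21 CPM on average in WT PAX6+ and 24.5 CPM in KO PAX6+, and at 17.6 and 25.8 CPM in WT and KO PAX6-TBR2-. For Gabrg1 they were Robo3 (0.875), Moxd1 (0.870), Gm26911 (0.854), Dennd5a (0.853) and Ptx3 (0.850). Robo3, a receptor gene of axon guidance, was at 3.44 CPM on average in WT PAX6+ and 27.1 in KO PAX6+, and at 2.19 and 4.30 CPM in WT and KO TBR2+. None of the other members was among these genes: with Gabra2, Gabrg1 had an r of 0.607, Gabrb1 of 0.043 and Gabra4 of -0.055.

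Single markers of several cell types were called between genotypes in PAX6+ cells and were chosen for naming after their values were seen. Of the 7 intermediate progenitor markers 2 were called lower in KO, with a median log2 fold change of -0.37 over the list. They were Eomes, the gene of TBR2 (-0.74, SE 0.19, edgeR adjusted p = 0.0358), and Insm1 (-0.52, SE 0.12, edgeR adjusted p = 0.0174), and the list summed to 318 to 452 CPM in WT and 278 to 371 CPM in KO PAX6+. Of the 9 cortical neuron markers 1 was called lower, Dcx (-1.01, SE 0.21, edgeR adjusted p = 0.0081), with a list median of -0.29. Of the 9 radial glia markers 1 was called higher, Slc1a3 (0.43, SE 0.11, edgeR adjusted p = 0.0354), and 4 with the replicate block. Cajal-Retzius markers summed to 302 CPM in WT PAX6+ replicate 3, above all 8 PAX6-TBR2- libraries (126 to 188 CPM), and to 33.1 to 53 CPM in the other WT and 16.4 to 95.2 CPM in the KO PAX6+ libraries. None of the 3 Cajal-Retzius markers tested in PAX6+ was called, and 2 were called lower with the replicate block. In TBR2+ libraries the Cajal-Retzius markers summed to 135 to 549 CPM in WT and 379 to 571 CPM in KO. All 6 were tested there and had a log2 fold change above 0, with a median of 0.58, and 0 were called. Their part in the TBR2+ values of Gabra2 and Gabrg1 was not tested. Without WT PAX6+ replicate 3 the PAX6+ log2 fold change was 4.04 for Gabra2 and 3.61 for Gabrg1, and without replicate 1, which had the most interneuron RNA, 4.04 and 3.99. Vascular markers summed to 13.3 to 30.8 and 4.77 to 29.2 CPM, glial precursor markers to 5.95 to 10.7 and 3.71 to 9.6 CPM, and microglial markers to 0.791 to 2.21 and 1.25 to 3.86 CPM in WT and KO PAX6+. The genotypes overlapped for each of these lists. Meningeal markers, at 3.39 to 4.77 CPM in WT PAX6+ and 1.23 to 3.32 in KO PAX6+, were lower in each KO library, and 1 of 2 tested was called lower, as was 1 of 3 tested glial precursor markers. The part of these cells in the members' values was not tested beyond leaving out the libraries named.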

How the data were processed

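Raw counts per Ensembl gene were deposited, 2 lane columns per library, and were summed here. The submitters' processing notes name the build mm10 and, without versions, the tools STAR, featureCounts, DESeq2, cutadapt and FastQC, and per the labels' protocols the RNA was amplified by SPIA (Ovation RNA-seq V2) with no molecular identifiers, so limits and intervals cover counting error only. The deposited normalized tables hold signal values. From these, whole reads were recovered in 100% of values (tolerance 1e-06). They equalled the raw counts in PAX6+, and in the other groups came to 1.44 to 1.7 times them, so they served only as an alternative. Names, exon lengths and positions came from GENCODE M21 (37607 of 39017 genes matched).

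Groups and replicate numbers came from the sample titles. All genes were tested with the quasi-likelihood F test of edgeR 4.0.16 (R 4.3.3), two-sided, after TMM scaling and the filterByExpr filter, with 2 groups per fit, Benjamini-Hochberg adjustment over all genes tested, and a threshold of 0.05. An SE is the log2 fold change divided by the square root of F. Fold changes use the scaling of their own comparison, and CPM that of all 24 libraries. The 36 pairs of libraries of 1 group differed by more than sampling noise (chi-square per degree of freedom 5.65 to 45.5). Same-numbered KO and WT libraries deviated together in PAX6+ (r 0.161 to 0.371 in 4 pairs, each with its own number best), so a blocked value stands beside a PAX6+ result where it changed the call or moved a count by over 1.5 times; the other comparisons did not meet this rule. The scripts were tested on simulated data.

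The members and lists were chosen with earlier results of these data known. By the rule for named genes, the text gives all 8 members, GABA genes and neighbours within 2 Mb that passed, abundant subunits, and the 5 genes most like Gabra2 and Gabrg1. Alternatives were DESeq2 1.42.0 and its size factors, limma-voom (limma 3.58.1), no filter on low counts, all libraries in 1 fit, a replicate block, recovered reads and leaving out each library. Some results on other genes of GABA signalling are not reported here.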

Additional observations from a re-analysis of the deposited data

Results flagged for a closer look

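Gabra5 was far from the other libraries of its group in 2 places, both at the limit of detection. In WT PAX6+ replicate 1 it was at 0.0879 CPM, which is 1 read, and in the other 3 libraries at 0. In KO PAX6+ replicate 4 it was at 0.256 CPM, which is 3 reads, with 0 in the other 3. These were the 2 cases among the 48 groups of 4 values examined, and about 1 in 20 such groups are picked out by chance.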

How the results depend on the processing

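Of 522 values of members' fold changes under alternatives, 507 kept their side of the threshold and 6 newly passed. A further 9 no longer passed (all Gabrb2 between WT TBR2+ and PAX6+), and 0 reversed a called value. Some uncalled values changed sign when 1 library was left out. Gabra3 reached -0.05 in PAX6+ and -0.06 in PAX6-TBR2-, and Gabrg3 reached 0.15 in PAX6+. Depth limits Gabra5 in PAX6+ and Gabrg1 in WT cells and in neurons.

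With the replicate block, the genes called between genotypes numbered 1045 in PAX6+, 720 in TBR2+ and 153 in PAX6-TBR2-, against 517, 223 and 1, and the GABA pathway genes called 7 in TBR2+ and 3 in PAX6-TBR2-, against 1 and 0. In TBR2+ no filter gave 728 genes and DESeq2 356, with 6 and 3 pathway genes. In PAX6-TBR2- no filter gave 38 genes, DESeq2 24 and all libraries in 1 fit 6. Gabra2 was the 1 member called there, against 0, with no filter, with DESeq2 and with the replicate block (log2 fold changes 0.67, 0.69 and 0.68). The cause was not tested. In PAX6+ the block changed the call of Gabra4 and of 3 of 22 other named genes, Prdm16, Gm15616 and Atp10d, all of which then passed. Outside PAX6+ same-numbered KO and WT libraries correlated at 0.0457 to 0.409, and 2 of 4 (TBR2+) and 3 of 4 (PAX6-TBR2-) correlated best with their own number.

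Leaving out 1 library at a time gave 358 to 529 genes, 3 to 4 members and 4 to 7 pathway genes in PAX6+. In TBR2+ it gave 121 to 420 genes (137 without WT replicate 1, 121 without WT replicate 3, and 420, 139 and 142 without KO replicates 1, 2 and 3), 2 members and 1 to 2 pathway genes. In PAX6-TBR2- it gave 1 to 3 genes, 0 members and 0 pathway genes. Between WT populations it gave 8080 to 8487 genes and 3 to 4 members (TBR2+ against PAX6+), 5711 to 6391 and 5 to 6 (PAX6-TBR2- against TBR2+) and 9192 to 9694 and 7 to 8 (PAX6-TBR2- against PAX6+).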
